A study of Mus musculus with 6 samples.

Results

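The Ms4a genes encode small membrane proteins that cross the plasma membrane several times and act beside immune receptors. The 6 described here are Ms4a3, Ms4a4b, Ms4a4c, Ms4a6b, Ms4a6c and Ms4a6d. They were found by symbol among the 32285 genes of the deposited features, which hold 19 Ms4a genes in all, and all 6 were present with matching Ensembl identifiers. The family was chosen by measured values, since several members differed between leukemic and control mice in earlier results of these counts. The AML against PBS values below are therefore a description and not a test of the members. All cells came from non-conditioned female C57BL/6J mice carrying CD45.1, aged 8 to 12 weeks. The AML group had received 1000000 C1498 cells, a murine acute myeloid leukemia line that carries CD45.2, and the PBS group had received the vehicle. Both groups were sampled at day 21. Healthy host cells that were CD45.1+, lineage negative, cKit+ and Sca1+ (LSK cells) were sorted from the marrow and sequenced one by one in 3 PBS and 3 AML libraries. C1498 is a single transplanted line, so the AML group stands for that model only.

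In the blood system the family is best known through Ms4a1, which encodes the B cell surface protein CD20, and Ms4a2, which encodes the beta chain of the high-affinity IgE receptor of mast cells and basophils. Ms4a3 marks progenitors committed to granulocytes and monocytes. Ms4a4b is a T cell gene, Ms4a6b is found in lymphoid and myeloid cells, and Ms4a6c and Ms4a6d are expressed along the monocyte and macrophage lineage. LSK cells contain the hematopoietic stem cells (HSC) and the multipotent progenitors (MPP), of which MPP-2 leans towards megakaryocytes and erythroid cells, MPP-3 towards myeloid cells and MPP-4 towards lymphoid cells.

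The 6 genes lie together on mouse chromosome 19 (GRCm38, GENCODE M21). They occupy 236 kb, from chr19:11404770-11427246 for Ms4a4c at one end to chr19:11629496-11640851 for Ms4a3 at the other, an interval that holds 9 protein-coding genes. Ms4a4c, Ms4a4b (chr19:11443553-11467055), Ms4a6c (chr19:11469366-11482192) and Ms4a6b (chr19:11516512-11531256) are on the plus strand. Ms4a6d (chr19:11586604-11604849), Ms4a2 and Ms4a3 are on the minus strand. The neighbours are close copies. Across the aligned bases of their longest protein-coding transcripts, Ms4a4b and Ms4a4c were 91.3% identical, Ms4a6b and Ms4a6c 89.8%, Ms4a6b and Ms4a6d 82.4%, and Ms4a6c and Ms4a6d 79.7%. The counting reads the 3′ end of transcripts, so the last 500 bases were compared in windows of 50 bases. Of 451 windows, 53 of Ms4a4c (11.8%) and 47 of Ms4a6c (10.4%) also occurred in a transcript of another Ms4a gene, and 0 of 451 did for each of the other 4 members. Because some reads of these copies could be split or shared, the sum of Ms4a4b and Ms4a4c (the Ms4a4 sum) and of Ms4a6b, Ms4a6c and Ms4a6d (the Ms4a6 sum) are given beside the single genes.

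The upstream sequences of the paired copies are shown because the pairs share more than their coding parts while their levels differed between cells. They are the 250 bases before the RefSeq start site (GRCm38.p6, plus strand) of Ms4a4b (chr19:11443308-11443557), Ms4a4c (chr19:11407411-11407660), Ms4a6b (chr19:11518309-11518558) and Ms4a6c (chr19:11469118-11469367). Such a sequence was found for 5 of the 6 members, Ms4a6d being the other. Capitals mark matches to the motifs described after them.
Ms4a4b: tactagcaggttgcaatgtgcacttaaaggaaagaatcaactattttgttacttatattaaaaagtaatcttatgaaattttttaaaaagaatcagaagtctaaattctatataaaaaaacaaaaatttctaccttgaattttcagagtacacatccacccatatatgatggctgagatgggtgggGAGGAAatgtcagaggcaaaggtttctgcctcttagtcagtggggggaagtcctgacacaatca
Ms4a4c: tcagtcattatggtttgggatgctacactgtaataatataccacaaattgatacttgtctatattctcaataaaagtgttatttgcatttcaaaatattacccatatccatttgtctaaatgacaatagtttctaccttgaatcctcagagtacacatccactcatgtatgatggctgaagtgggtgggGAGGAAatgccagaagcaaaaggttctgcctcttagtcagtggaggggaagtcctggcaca
Ms4a6b: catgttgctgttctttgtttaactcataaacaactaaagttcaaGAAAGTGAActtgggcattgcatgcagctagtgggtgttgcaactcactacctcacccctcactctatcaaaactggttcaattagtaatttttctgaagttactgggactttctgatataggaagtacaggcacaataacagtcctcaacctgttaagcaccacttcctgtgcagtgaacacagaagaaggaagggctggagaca
Ms4a6c: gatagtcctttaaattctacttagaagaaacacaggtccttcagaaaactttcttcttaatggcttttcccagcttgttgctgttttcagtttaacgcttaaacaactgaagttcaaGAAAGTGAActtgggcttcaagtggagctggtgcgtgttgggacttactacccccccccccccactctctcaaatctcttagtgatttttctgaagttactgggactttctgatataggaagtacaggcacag

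Both strands of these windows were searched for 4 short motifs. The core of the interferon response element (GAAANNGAA) was present in Ms4a6b, 206 bases before the start, and in Ms4a6c, 133 bases before it, as the same letters GAAAGTGAA. This motif was held by 7.13% of all 32851 windows of the same length. The core of sites for PU.1, a myeloid transcription factor (GAGGAA), was present in Ms4a4b and Ms4a4c, 64 and 61 bases before the start, and in 23.3% of all windows. No letters of the PU.1 and IRF composite core (GGAANNGAA, in 6.99% of windows) or of the C/EBP core (TTGCNNAA, in 9.56%) were found in the 5 members, and Ms4a3 held none of the 4 motifs. The interferon and composite cores share their last letters and can overlap. Across aligned bases the windows of Ms4a6b and Ms4a6c were 88.4% identical and those of Ms4a4b and Ms4a4c 83.3%. These matches are letters in a sequence and not measured binding.

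The cells analyzed are the 16822 in the authors' cell table, with 693 to 6838 cells and 1945659 to 32123508 UMIs (unique transcript tags) per library. The table holds 0 cells of AML replicate 2, so 3 PBS libraries were set against 2 AML libraries. AML replicate 1 was the smallest and shallowest of the 5 libraries, and 85.3% of its cells were assigned to S or G2M phase against 41.8% to 51.0% in the others. Libraries shared cell barcodes: all 934 cells of PBS replicate 2 and 1854 of 3959 cells of AML replicate 3 had a barcode also listed in another library. In 155 of the 16822 cells another library held at least 10% as many UMIs for the barcode, and folds without those cells are given beside the results. Leaving out every shared barcode is a wider step, made on every barcode that had 1000 or more genes detected and no more than 10% of its UMIs from mitochondrial genes. It left 4 cells of PBS replicate 2. In AML replicate 3 it moved Ms4a3 from 32.7 to 14.8 CPM and Ms4a6c from 149 to 89.2 CPM. In PBS replicate 3 Ms4a3 moved from 18.5 to 8.18 CPM and Ms4a6c from 59.0 to 42.2 CPM, while in PBS replicate 1 they were at 12.5 and 44.2 CPM and in AML replicate 1 at 43.2 and 138 CPM after it. Both AML libraries were then still above PBS replicates 1 and 3, for Ms4a3 by 14.8 against 12.5 CPM at the nearest, and the cause of these shifts was not tested. Kit and Ly6a, the genes of the sorted proteins cKit and Sca1, were detected in every library, as were Cd34 and Cd48, which were not part of the gate. Of the markers of each class, 10 of 10 for HSC, 8 of 8 for MPP-3, 6 of 8 for MPP-4 and 5 of 9 for MPP-2 were highest in the class they mark, so that the MPP-2 label is the least clear of the 4. Levels are given as CPM, the UMIs of a gene per 1000000 UMIs of the summed cells, with no scaling for gene length.

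Ms4a3, the granulocyte and monocyte progenitor gene, had its highest level in MPP-3 and in cluster 4. Of its UMIs in the PBS libraries 474 were in MPP-3 and 467 in MPP-2, the larger class, and cluster 0, the largest cluster, held 32.1% in PBS replicate 1. Over all LSK cells it stood at 15.3, 8.84 and 21.2 CPM in PBS replicates 1 to 3, and at 38.5 and 36.9 CPM in AML replicates 1 and 3. The AML libraries lay above all PBS libraries, with a mean of 37.7 ± 1.18 (SD, n = 2) against 15.1 ± 6.18 (SD, n = 3). In MPP-3 cells it reached 47.2, 78.3 and 87.6 CPM in PBS and 79.6 and 98.5 CPM in AML, and these ranges overlapped. In MPP-4 cells the same gene was between 0.760 and 8.56 CPM over the 5 libraries. MPP-3 exceeded MPP-4 in 5 of 5 libraries, although the MPP-4 values of PBS replicate 2 and AML replicate 1 rest on 3 UMIs each. MPP-2 came next, at 9.23 to 23.6 CPM, and HSC at 2.85 to 32.6 CPM. MPP-2 and HSC were not ordered alike in every library, but the exception rests on 2 UMIs of Ms4a3 in the 23 HSC cells of AML replicate 1, at 32.6 CPM against 22.9 CPM in its MPP-2 cells. In the other 4 libraries MPP-2 was above HSC.

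Within MPP-3 Ms4a3 was highest in the cells of cluster 4. MPP-3 cells in cluster 4 held 169 to 273 CPM and MPP-3 cells outside it 0 to 46.6 CPM. Cluster 4 made up 2.88%, 2.46% and 3.41% of the cells in the PBS libraries, and held 38.8%, 58.7% and 46.3% of their Ms4a3 UMIs. In the AML libraries the cluster was larger, at 11.1% and 9.57% of cells, and held 41.3% and 67.5% of the Ms4a3 UMIs. All cells of cluster 4 together stood at 138, 158 and 173 CPM in PBS and 137 and 167 CPM in AML, so the groups overlapped. Cluster 4 was above the rest of the cells for 8 of 8 MPP-3 markers and for 7 of 8 markers of mast cells and basophils (351 against 11.5 CPM in sum, 1 of the 8 at 0), for 8 of 11 markers of monocytes and macrophages (232 against 96.5 CPM), and for 2 of 12 markers of T and NK cells. The part of these other markers in the Ms4a3 level was not tested.

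**Figure D1:**
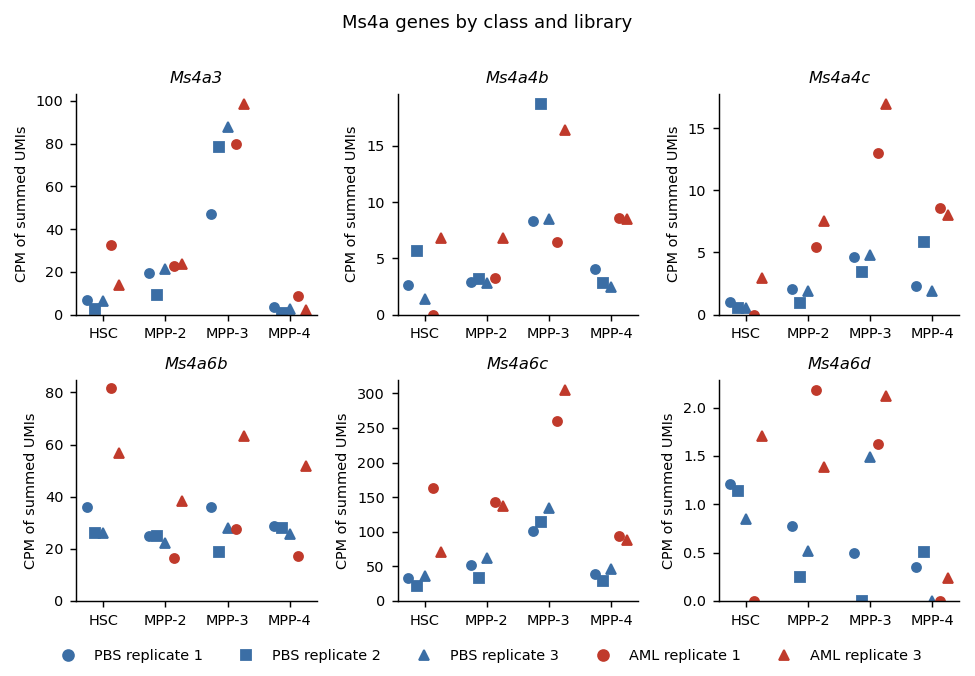
CPM of the summed UMIs (linear axis from 0) of each Ms4a gene in the 4 classes, HSC first, with 1 point per library, circles, squares and triangles for replicates 1, 2 and 3, blue for PBS and red for AML. Ms4a3 and Ms4a6c have their highest points in MPP-3, where Ms4a6c reaches 305 CPM, while no class of Ms4a6b is highest in all libraries.

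Ms4a6c, a gene of the monocyte lineage, was present in every class and highest in MPP-3. Over all LSK cells it stood at 50.6, 34.3 and 61.5 CPM in PBS and 172 and 163 CPM in AML. The AML values did not overlap those of PBS, and the means were 167 ± 6.42 (SD, n = 2) and 48.8 ± 13.7 (SD, n = 3). In MPP-3 it measured 101, 114 and 134 CPM in PBS and 260 and 305 CPM in AML, in MPP-2 it measured 51.9, 33.3 and 62.0 CPM against 143 and 137 CPM, and in MPP-4 it measured 39.0, 28.9 and 45.6 CPM against 94.1 and 87.9 CPM. HSC held 33.4, 22.2 and 36.1 CPM in PBS and 163 and 70.5 CPM in AML. The value of 163 CPM is that of AML replicate 1, which had few HSC cells, as given above. Both AML libraries were above all PBS libraries in each of the 4 classes, as they were for 19.5%, 16.1%, 16.8% and 17.3% of all genes tested in HSC, MPP-2, MPP-3 and then MPP-4. MPP-3 was above each other class in 5 of 5 libraries, while HSC was 0.770 to 1.73 times MPP-4 and above it in 1 of 5 libraries. In cluster 4 Ms4a6c reached 342, 223 and 347 CPM in PBS and 450 and 505 CPM in AML, with both AML values above the PBS values.

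Ms4a6b, the close copy of Ms4a6c, did not follow this order. It measured 36.0, 26.2 and 25.9 CPM in PBS HSC and 36.2, 18.7 and 27.8 CPM in PBS MPP-3. Its level in MPP-3 was 0.339 to 1.12 times that in HSC, and higher in 3 of 5 libraries. Over all LSK cells it stood at 29.5, 26.0 and 24.5 CPM in PBS and at 22.1 and 50.7 CPM in AML. AML replicate 1 was thus below every PBS library and AML replicate 3 above every one. This order changed with the weight of the classes. With equal class weight both AML libraries, at 35.7 and 52.5 CPM, were above PBS at 24.5 to 31.5 CPM, a log2 ratio of 0.70. In HSC they stood at 81.6 and 56.8 CPM, above all PBS libraries, the first of them on 5 UMIs. That HSC value counts as much as each other class in the equal-weight level of AML replicate 1. The place of this library above PBS therefore leans on those 5 UMIs. The Ms4a6 sum, in which Ms4a6c is the larger part, was 80.7, 60.7 and 86.5 CPM in PBS and 195 and 215 CPM in AML. Ms4a6d, the third copy and a macrophage gene, was counted in 76 UMIs over all cells. Its level was 0.481 to 0.654 CPM in PBS and 1.54 and 1.27 CPM in AML, and the first of these AML values rests on 3 UMIs.

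Ms4a4b, the T cell member, and its copy Ms4a4c were counted less often, with 530 and 440 UMIs in all. Ms4a4b stood at 3.98, 4.33 and 3.17 CPM in PBS and 5.14 and 9.96 CPM in AML. Ms4a4c stood at 2.33, 2.88 and 2.02 CPM in PBS and 8.22 and 9.89 CPM in AML, the latter on 16 and 273 UMIs. For both genes the groups did not overlap, by a small gap for Ms4a4b and a wide one for Ms4a4c. With equal class weight the Ms4a4b groups overlapped, at 3.81 to 7.59 CPM in PBS and 4.58 and 9.65 CPM in AML, a log2 ratio of 0.42, and without AML replicate 3 its fitted log2 fold was 0.44. In MPP-3 cells Ms4a4c was at 4.67, 3.40 and 4.83 CPM in PBS and 12.99 and 16.9 CPM in AML. HSC held at most 7 Ms4a4c UMIs in any library, at 0 to 2.99 CPM, so no ratio of MPP-3 to HSC is given. MPP-3 was above MPP-4 in 4 of 5 libraries for either gene, so these 2 classes were not cleanly ordered. The Ms4a4 sum was 6.32, 7.21 and 5.19 CPM in PBS and 13.4 and 19.9 CPM in AML.

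Cluster 8 held 113 cells, of which 28 and 23 were in PBS replicates 1 and 3 and 52 in AML replicate 3; the remaining libraries had 5 cells each and are left out of the levels. There Ms4a4b reached 246 and 137 CPM in PBS replicates 1 and 3 and 276 CPM in AML replicate 3, which was 27.7 to 61.8 times the level over all LSK cells of the same library. Its copy Ms4a4c was at 61.3 CPM in AML replicate 3, on 14 UMIs, and above its level over all LSK cells there. In PBS replicates 1 and 3 it had 3 UMIs and 1 UMI in cluster 8, at 25.5 and 9.16 CPM, too few for a ratio. Ms4a6b was also high in cluster 8, at 84.9 and 64.1 CPM in PBS and 193 CPM in AML. Ms4a6c was at 17.0 and 0 CPM in PBS and 17.5 CPM in AML, below its level over all LSK cells in 3 of 3 libraries, on 2, 0 and 4 UMIs. Cluster 8 was above the rest for 11 of 12 markers of T and NK cells (1055 against 22.1 CPM in sum) with 1 of them at 0, while all 8 neutrophil markers were at 0. Although it made up 0.409% to 1.31% of the cells, it held 22.7% and 20.8% of the Ms4a4b UMIs in PBS replicates 1 and 3 and 22.9% in AML replicate 3. The T and NK marker sum over all LSK cells was 21.2 to 30.6 CPM in PBS and 16.4 and 37.8 CPM in AML.

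**Figure D2:**
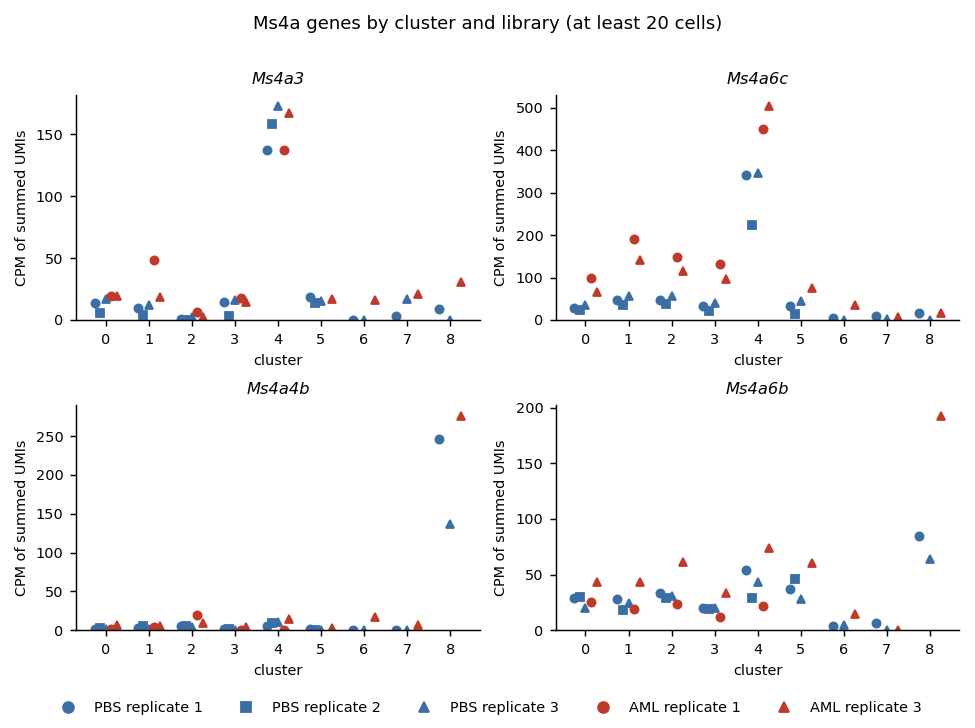
CPM of the summed UMIs (linear axis from 0) of Ms4a3, Ms4a6c, Ms4a4b and Ms4a6b in clusters 0 to 8, with 1 point per library that had at least 20 cells in the cluster, circles, squares and triangles for replicates 1, 2 and 3, blue for PBS and red for AML. Ms4a3 and Ms4a6c peak in cluster 4 and Ms4a4b in cluster 8, where it reaches 276 CPM and Ms4a6b 193 CPM.

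In cluster 6, which was above the rest for 4 of 7 B cell markers and 6 of 8 erythroid markers, Ms4a6c was at 3.87 and 0 CPM in PBS replicates 1 and 3 and at 34.5 CPM in AML replicate 3. In cluster 7, above the rest for 8 of 8 erythroid markers, Ms4a6c was at 10.3, 2.85 and 7.11 CPM in the same libraries, on 1 to 3 UMIs each. Ms4a3 was at 0, 0 and 16.4 CPM in cluster 6 and at 3.44, 17.1 and 21.3 CPM in cluster 7 of these libraries. Ms4a4b had 0 UMIs in either cluster of the PBS libraries, and in AML replicate 3 it was at 16.4 CPM in cluster 6 and 7.11 CPM in cluster 7. Ms4a3 was also low in cluster 2, at 1.07, 0 and 2.67 CPM in PBS and 6.62 and 2.48 CPM in AML. In that cluster Ms4a6c was at 46.9, 37.0 and 57.3 CPM in PBS and 149 and 115 CPM in AML. Ms4a4c was present in cluster 2 as well, at 3.81 to 11.1 CPM in PBS and 6.62 and 15.96 CPM in AML. Classes and clusters were made from the expression of the same cells, so these levels are described and not tested.

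The AML against PBS contrast was fitted with edgeR on the sums per library, and a gene counts as called when its Benjamini-Hochberg adjusted p is under 0.05. Over all LSK cells the log2 fold change (AML over PBS, ± SE) was 1.74 ± 0.27 for Ms4a6c, 1.94 ± 0.29 for Ms4a4c, 1.26 ± 0.30 for Ms4a3, 1.12 ± 0.30 for Ms4a4b, 1.19 ± 0.53 for Ms4a6d and 0.50 ± 0.27 for Ms4a6b. Of the 6 members, Ms4a4c and Ms4a6c were called, both higher in AML, where 0.153% of the 14364 genes tested were called in that direction. Both AML libraries exceeded all PBS libraries for 5 of the 6 members, Ms4a6b being the exception, and for 16.0% of all genes tested. These members were chosen with this contrast known, so the counts describe them and nothing more. The makeup of the libraries moved with the groups. MPP-3 cells were 796 of 6838, 41 of 934 and 422 of 4398 cells in PBS and 228 of 693 and 882 of 3959 in AML, and the summed MPP-3 markers were at 1486 to 2400 CPM in PBS and 3084 and 3342 CPM in AML. Lower in both AML libraries than in all PBS libraries were the marker sums of HSC (494 to 556 CPM in PBS, 327 and 364 CPM in AML), of MPP-2 (268 to 382 CPM, then 189 and 245 CPM) and of erythroid cells (783 to 1165 CPM, then 275 and 585 CPM). The sums of the MPP-4, T and NK, B cell, monocyte, neutrophil, mast cell and dendritic cell lists overlapped between the groups. The part of this makeup in the folds was not tested beyond the folds within classes, with equal class weight and without cluster 4. The summed copies were called as well, at 1.47 ± 0.25 for the Ms4a4 sum and 1.40 ± 0.24 for the Ms4a6 sum. Both calls were lost without cluster 4, at 1.44 and 1.25, and that of the Ms4a4 sum also with cells thinned to 2000 UMIs, at 1.47. The number of members called fell to 0 when PBS replicate 1 was left out, in a fit that called 2 of 13543 genes. It fell to 1 without PBS replicate 2, where 8 of 14285 genes were called. With PBS replicate 3 left out, Ms4a3 and Ms4a6c were the 2 called, among 23 of 13733 genes. The folds moved less than the calls, to 1.73 for Ms4a6c and 1.89 for Ms4a4c without PBS replicate 1, 1.56 for Ms4a6c without PBS replicate 2, and 1.79 and 1.89 for Ms4a4c without AML replicate 3 and without PBS replicate 3. The Ms4a6b fold turned to -0.27 without AML replicate 3. Without the cells that shared barcodes with many UMIs the folds of Ms4a4c and Ms4a6c were 1.94 and 1.73.

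**Figure D3:**
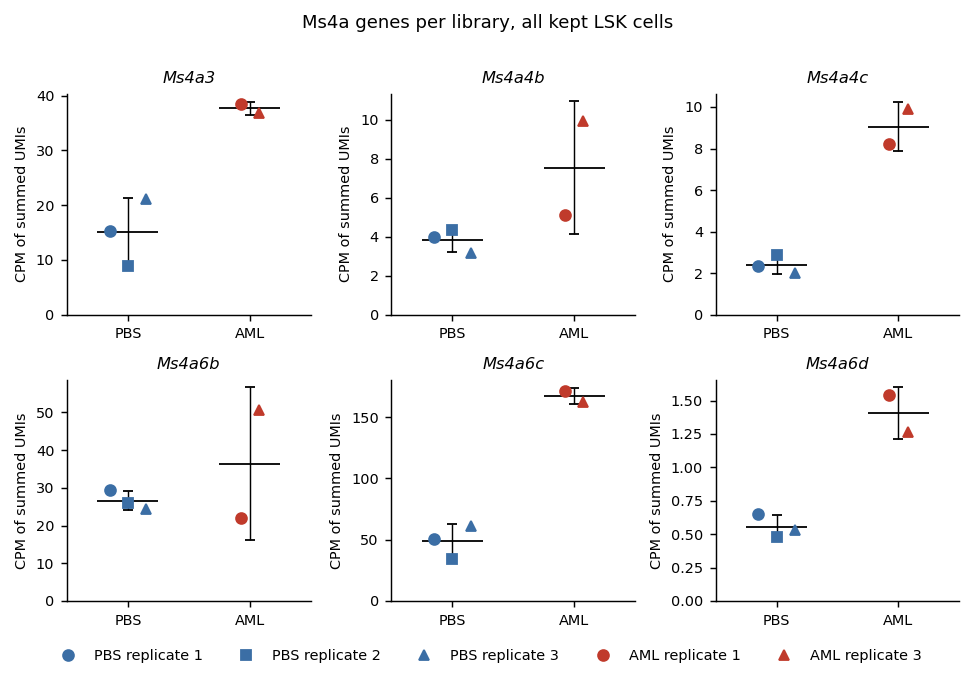
CPM of the summed UMIs of all kept LSK cells (linear axis from 0) for each Ms4a gene, with 1 point per library, circles, squares and triangles for replicates 1, 2 and 3, and the mean with its SD in black (PBS n = 3, AML n = 2). For Ms4a6c the AML libraries sit at 172 and 163 CPM, above the highest PBS library at 61.5 CPM, while the 2 AML points of Ms4a6b fall on either side of the PBS points.

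The fold of Ms4a3 depended on which cells were summed. Within classes it was largest in HSC, at 1.20 ± 0.48, against 0.40 ± 0.31 in MPP-2 and 0.15 in both MPP-3 (SE 0.35) and MPP-4 (SE 0.63). Without AML replicate 3 it was 2.08 in HSC, -0.03 in MPP-3 and 1.59 in MPP-4. These values set AML replicate 1 alone against PBS, with the few HSC and MPP-4 UMIs of Ms4a3 given above. The median fold over all genes in that HSC fit was -0.50. The Ms4a3 fold was -0.16 in MPP-4 without AML replicate 1 and -0.22 in MPP-3 without PBS replicate 1. When each class was given equal weight in every library, the log2 ratio of mean levels was 0.56, against 1.26 in the sum of all cells. With cluster 4 left out the fitted fold was 1.00, and it was 1.35 in G1 cells alone and 1.00 in cycling cells alone. The larger share of cluster 4 cells in AML moved with the Ms4a3 level, and its part in the fold beyond these values was not tested. Ms4a6c changed less with the choice of cells. Its fold was 1.21 ± 0.28 in HSC, 1.44 ± 0.27 in MPP-2, 1.08 ± 0.31 for MPP-3 and 1.14 ± 0.24 for MPP-4, 1.43 with equal class weight, 1.64 without cluster 4, 1.40 in G1 cells and 1.69 in cycling cells. Ms4a4c stood at 1.95 ± 0.42 in MPP-2, 1.70 ± 0.39 for MPP-3 and 1.32 ± 0.47 for MPP-4, with too few counts to be fitted in HSC. Ms4a6b had folds between 0.29 and 0.84 in the 4 classes.

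**Figure D4:**
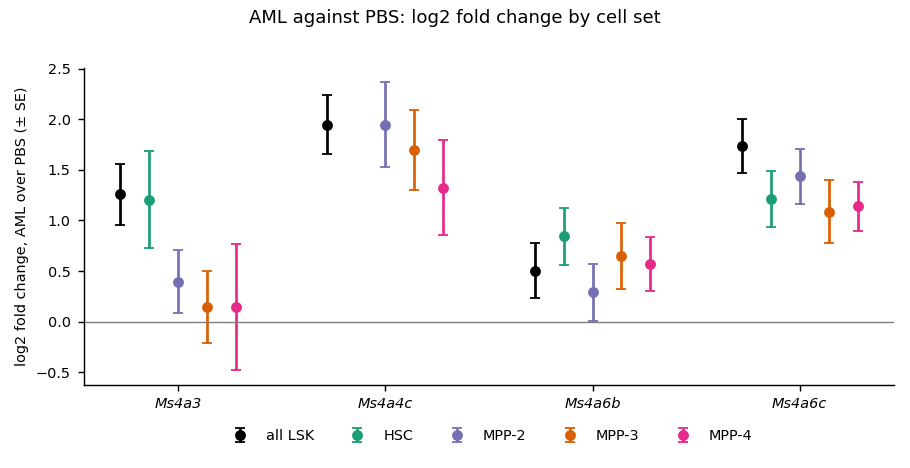
Log2 fold change of AML over PBS with its SE (vertical bars) for Ms4a3, Ms4a4c, Ms4a6b and Ms4a6c, fitted over all LSK cells and within each of the 4 classes from 3 PBS and 2 AML libraries. The Ms4a3 point falls from 1.26 over all cells to 0.15 in MPP-3, while the 5 Ms4a6c points lie between 1.08 and 1.74.

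Inside the classes few genes of any kind were called. In HSC 1 of the 4 members tested, Ms4a6c, was called higher in AML, against 0.131% of all genes. AML replicate 1 entered that fit with few HSC cells, as given above. That call was lost without PBS replicate 1, PBS replicate 2, AML replicate 1 or AML replicate 3, each left out alone, with folds of 1.23, 1.07, 1.05 and 1.97. For the 3 progenitor classes, in the order MPP-2 to MPP-4, the edgeR fits called 0 of 6, 0 of 5 and 0 of 5 members, where 0.0399%, 0.0194% and 0.0325% of all genes were called higher in AML. At an unadjusted p under 0.05 these fits had 946, 761 and 730 genes. Ms4a6c was called in MPP-2 by DESeq2 and in no class by limma-voom.

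Whether the AML effect differed between the 4 classes was a separate question, which the choice of members did not use. The interaction terms, fitted with 1 term per library, called 0 of the 5 members tested and 0.872% of the 12734 genes. The edgeR adjusted p was 0.789 for Ms4a3, 0.833 for Ms4a4b, 0.938 for Ms4a4c, 0.732 for Ms4a6b and 0.793 for Ms4a6c. For Ms4a3 the AML effect in MPP-4 minus that in HSC was -1.26 ± 0.74 on the log2 scale, and the corresponding differences for MPP-2 and MPP-3 were -0.76 ± 0.54 and -0.55 ± 0.52. For Ms4a6c the 3 differences from HSC were 0.33 ± 0.23, 0.25 ± 0.24 and 0.05 ± 0.24. No difference between the class effects passed the test, which does not show that they were alike.

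Cells assigned to S or G2M phase by the authors were then compared with G1 cells of the same library, a contrast that the choice of members did not use. Ms4a3 rose in cycling cells by 1.61 ± 0.11 on the log2 scale (edgeR, library as a block, 5 libraries, adjusted p = 1.4e-10). Its level went from 8.91, 2.41 and 9.69 CPM in G1 to 20.003, 13.9 and 29.3 CPM in cycling cells of the PBS libraries, and from 16.5 to 47.7 CPM in AML replicate 3. AML replicate 1 went the other way, from 39.8 to 38.3 CPM, on only 102 G1 cells. Ms4a6c rose by 0.88 ± 0.07 (adjusted p = 1.3e-09) and was higher in cycling cells in 5 of 5 libraries. Its levels were 39.3, 28.2 and 44.8 CPM in G1 and 58.8, 39.1 and 73.2 CPM in cycling cells in PBS, with 123 and 98.4 against 180 and 196 CPM in AML. The share of all 12434 genes called higher in cycling cells was 28.8% and lower 34.0%, so that 2 of 5 members called higher is not far from the background. Scaled by library size only, the shares were 20.1% higher and 47.3% lower, with a median fold over all genes of -0.21 against -0.07. Under that scaling Ms4a3 and Ms4a6c were still called higher, at 1.45 and 0.73, and Ms4a4b and Ms4a6b were called lower, at -0.51 and -0.29. S phase alone gave 30.7% of genes higher and 29.3% lower.

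**Figure D5:**
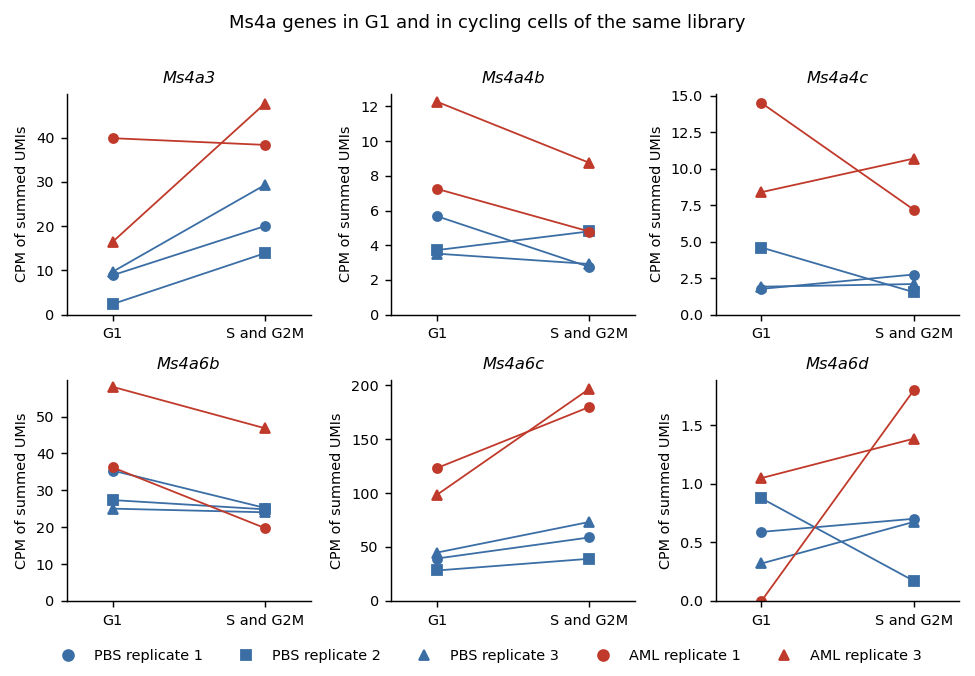
CPM of the summed UMIs (linear axis from 0) of each Ms4a gene in G1 cells and in S and G2M cells, with a line joining the values of the same library, circles, squares and triangles for replicates 1, 2 and 3, blue for PBS and red for AML. The lines of Ms4a6c rise in all 5 libraries and those of Ms4a3 in 4, while AML replicate 1 stays near 39 CPM for Ms4a3.

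None of the other copies passed the test in this fit. Ms4a6b had a difference of -0.14 ± 0.07 (adjusted p = 0.0903), Ms4a4b of -0.35 ± 0.16 (adjusted p = 0.0650) and Ms4a4c of 0.30 ± 0.21 (adjusted p = 0.221), and Ms4a6d had too few counts. The Ms4a6 sum rose by 0.54 ± 0.07 (adjusted p = 8.5e-07), and the Ms4a4 sum differed by -0.07 ± 0.11 (adjusted p = 0.725). Set against G1, S phase alone gave Ms4a6b -0.47 ± 0.09 (adjusted p = 1.7e-04) and G2M alone gave 0.19 ± 0.09 (adjusted p = 0.0713), which differ in direction. Within MPP-3 cells of the 4 libraries with enough cells, Ms4a3 rose by 1.11 ± 0.14 and Ms4a6c by 1.05 ± 0.11 (adjusted p = 1.0e-08 and 2.9e-11), and Ms4a4b fell by 1.37 on the log2 scale (SE 0.26, adjusted p = 3.5e-05). There Ms4a4b went from 14.9 to 2.74 CPM in PBS replicate 1, from 12.1 to 5.52 CPM in PBS replicate 3 and from 25.96 to 12.3 CPM in AML replicate 3. It went the other way in AML replicate 1, from 0 to 4 UMIs, and in PBS replicate 2, which had too few cells for the fit, from 0 to 11 UMIs. Within MPP-2 cells Ms4a6c rose by 1.23 ± 0.21 (adjusted p = 6.6e-05), while Ms4a3 had a difference of 0.40 ± 0.28 (adjusted p = 0.317). The difference in Ms4a3 between these classes was not tested. The call of Ms4a6b (-0.22, adjusted p = 0.0341) appeared without PBS replicate 3, and the calls of Ms4a4b (-0.46, adjusted p = 0.0166) and Ms4a4c (0.49, adjusted p = 0.0256) without PBS replicate 2.

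The rest of the family was sparse. Of the 13 other Ms4a genes, 8 had 0 UMIs in the kept cells, Ms4a4d and Ms4a8a had 4 and 2, and Ms4a1, Ms4a2 and Ms4a7 had 63, 168 and 95. Ms4a2, next to Ms4a3 on the chromosome, measured 2.21, 2.02 and 2.46 CPM in PBS and 0.72 CPM in AML replicate 3. In AML replicate 1 it had 0 UMIs, which allows up to 1.54 CPM by counting error alone (3 counts of the total). Its fold in AML was -1.87 ± 0.53 (edgeR, adjusted p = 0.227) and was not called. Tmem176a and Tmem176b, related tetraspan genes on another chromosome, had folds of -0.51 ± 0.26 and -0.52 ± 0.29 (adjusted p = 0.511 and 0.537). In cycling cells they fell by 0.15 and 0.25 on the log2 scale (SE 0.05 and 0.04, adjusted p = 0.00746 and 3.8e-05), the opposite direction to Ms4a3 and Ms4a6c.

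Lists of granulocyte-monocyte progenitor genes and of interferon-stimulated genes were read beside the members. These lists were chosen with earlier results of these data known, so their counts are descriptions and not tests. Of the 24 progenitor genes tested over all LSK cells, 5 were called higher in AML, as were 0.153% of all genes, and 0 lower, with a median fold of 0.64 against -0.03 over all genes. Of the 24 interferon-stimulated genes, 0 were called by edgeR, and 19 of them had a positive fold, with a median of 0.43. In HSC 9 of 24 interferon-stimulated genes and 0 of 18 progenitor genes were called higher, with medians of 0.93 and -0.04, where 0.131% of all genes were. DESeq2 and limma-voom called 0 genes of any kind in HSC, with 86 and 435 at an unadjusted p under 0.05. There edgeR called 19 genes of any kind with all libraries, and 8, 17 and 15 without PBS replicates 1, 2 and 3. Of the interferon-stimulated genes 0 of 24 were called in MPP-2, 0 of 24 in MPP-3 and 1 of 24 in MPP-4, and of the progenitor genes 3 of 22, 2 of 24 and 1 of 20, where 0.0399%, 0.0194% and 0.0325% of all genes were called higher. In cycling cells, where 28.8% of all genes were called higher and 34.0% lower, 13 of 23 progenitor genes rose and 4 fell, with a median of 0.49, whereas 1 of 24 interferon-stimulated genes rose and 20 fell, with a median of -0.66 against -0.07 over all genes.

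The genes whose level ran most like the members were found over 20 sums, 1 per library and class, among 5753 genes with a mean of at least 20 CPM. The points share libraries and depth, so the values of Pearson r on log2(CPM + 1) are descriptions. Ms4a3 was most like Mt1 (0.89), Rexo2 (0.87), Rab44 (0.84), Ap3s1 (0.83) and Elane (0.81), the last being neutrophil elastase, a granule protease of early myeloid cells. Ms4a6c was most like Rab44 (0.95), Gng12 (0.90), Gm26917 (0.86), Ly86 (0.85) and Irf8 (0.85), where Irf8 is a transcription factor of monocyte and dendritic cell development. The Ms4a4 sum rested on few UMIs, with a level that reached 0 in HSC. It was most like Slc7a5 (0.86), Pdia4 (0.85), Tpm4 (0.83), Gm2629 (0.81) and Rgs10 (0.80). Rab44 was the only gene named for 2 of these members.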

How the data were processed

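UMI counts per gene and cell barcode of 6 10x Chromium libraries were used as deposited by the authors, with no normalization. The submitters' processing notes name Cell Ranger 7.0.1, GRCm38 (mm10), R 4.2.2 and Seurat 4.3.0. The authors' cell table gave the library, class, cluster number and phase of each kept cell, from their module scores and cell cycle scores, which are deposited as score values; 20 further columns were not used, and the rules for cell filters, doublets and integration are not stated in the sources read. Counts were summed per library, and per class, cluster or phase with at least 20 cells. Genes were tested across all genes with edgeR 4.0.16 under R 4.3.3 (TMM, filterByExpr, quasi-likelihood F test, Benjamini-Hochberg, threshold 0.05) and, as alternatives, with DESeq2 1.42.0 and limma 3.58.1; the fits were tested on simulated data. The design assumed 3 against 3 libraries and had 3 against 2. The study used several mice per group, and the labels do not say whether each library was 1 mouse, so p-values measure the spread between libraries. By rule, genes named with values are the 6 members with their sums, other Ms4a genes with at least 10 UMIs, Tmem176a and Tmem176b, and the 5 most alike genes for Ms4a3, Ms4a6c and the Ms4a4 sum. Ms4a4d and Ms4a8a, under that minimum, are named to account for the family, and Kit, Ly6a, Cd34 and Cd48 as a check of the sort. The members, the marker lists and the gene lists were chosen with earlier results of these data known. Positions are from GENCODE M21 and upstream sequences from RefSeq. Counting intervals cover counting error only.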

Additional observations from a re-analysis of the deposited data

Results flagged for a closer look

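AML replicate 2 has 0 cells in the authors' table and so stands outside the comparisons other than the alternative with the own filter on 6 libraries. In the barcodes that passed an own filter, 5 members lay above the highest PBS library, and over all its barcodes 4 did. The share of all genes that did so in AML replicate 2 was not counted. Under the own filter every AML library was above every PBS library for 12.5% of 13688 genes tested. Over the 106 barcodes of the filter (at least 1000 detected genes, at most 10% mitochondrial UMIs), Ms4a6c stood at 134 CPM on 41 UMIs, against at most 59.0 CPM in the PBS libraries under the same filter. Ms4a3 stood at 55.5 CPM on 17 UMIs against at most 18.5 CPM, and Ms4a6b at 35.9 CPM on 11 UMIs against at most 29.4 CPM. Ms4a4b and Ms4a4c each stood at 13.1 CPM on 4 UMIs, against at most 4.38 and 3.21 CPM. Over all 17055 barcodes of the deposited matrix the levels were lower, at 74.1 CPM for Ms4a6c, 26.8 CPM for Ms4a3, 31.2 CPM for Ms4a6b and 3.95 CPM for Ms4a4c, against at most 58.7, 18.3, 29.3 and 3.26 CPM over all barcodes of the PBS libraries. Ms4a4b was then at 4.09 CPM, below the 4.42 CPM of PBS replicate 2. Of the 106 barcodes 75 also occurred in another library with at least 10% as many UMIs there. The other 31 barcodes hold 1 UMI of Ms4a3, 0 of Ms4a4b, 1 of Ms4a4c (14.6 CPM), 4 of Ms4a6b (58.5 CPM) and 3 of Ms4a6c (43.9 CPM), and how far the shared barcodes set the levels of this library was not tested. No member's AML effect differed between the classes past the threshold. Groups of 3 and 2 libraries are too small to be searched for single libraries that stand apart.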

How the results depend on the processing

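Over all LSK cells 2 members were called. The own filter on 6 libraries includes AML replicate 2, where 1 of 17 Ms4a3 UMIs lay in barcodes absent from other libraries. The count was 3 with DESeq2 and 3 with the own filter on 6 libraries, Ms4a3 being the member added. It was 1 with cells thinned to 2000 UMIs, 1 without cluster 4 and 1 in G1 cells alone (the latter 2 chosen after seeing the data), the call lost being Ms4a4c at 2.17, 1.95 and 1.77 against 1.94, and 4 with no filter on low counts, and 0 to 2 when single libraries were left out. Ms4a6c was called in every alternative run over all LSK cells except without PBS replicate 1 and without PBS replicate 2. In HSC the count of 1 became 0 with DESeq2, limma-voom or the replicate block, and ranged from 0 to 1 over left-out libraries. It rose from 0 to 1 in MPP-2 with DESeq2 or library size only and to 2 with no filter, to 1 in MPP-3 with library size only or no filter, and to 1 in MPP-4 with no filter. For cycling cells it was 4 with S phase alone or library size only, fits that called 7349 of 12246 and 8374 of 12434 genes, 1 within MPP-2 and 1 without the library block (added after seeing the data), and 2 to 4 over left-out libraries. Directions turned when single libraries were left out: Ms4a6b ranged from -0.27 to 0.90 over all LSK cells, -0.62 to 0.63 in MPP-2, -0.21 to 1.01 in MPP-3 and -0.82 to 0.84 in MPP-4, and Ms4a3 from -0.22 to 0.37 in MPP-3 and -0.16 to 1.59 in MPP-4. In cycling cells Ms4a6b turned to 0.19 in G2M alone, 0.073 within MPP-2 and 0.051 within MPP-3. The log2 ratio of MPP-3 over MPP-4 went from 4.44 to 3.00 for Ms4a3 and from 1.63 to 1.01 for Ms4a6c when the share of cells with a UMI after thinning replaced CPM, that of cluster 8 over all cells from 5.27 to 4.60 for Ms4a4b, and that of cluster 4 over all cells from 1.96 to 2.64 for Ms4a6c in PBS libraries alone. The cause of these shifts was not tested. The 23 genes called over all LSK cells became 79 with DESeq2, 392 with no filter, 91 with the replicate block, 75 with the own filter on 6 libraries, 53 in cycling cells, 12 without cluster 4 and 9 after thinning, and 2 to 419 over left-out libraries. In HSC 19 genes became 0 with DESeq2 or limma-voom, 29 with library size only or no filter and 9 with the replicate block. They became 8, 17 and 15 without PBS replicates 1, 2 and 3 in turn. With no filter MPP-2 went from 5 to 156, MPP-3 from 5 to 166 and MPP-4 from 4 to 75, with DESeq2 to 15, 8 and 1, with limma-voom to 8, 2 and 1, with library size only to 26, 84 and 9, and with the replicate block to 30, 47 and 34. Over left-out PBS libraries the genes called ran from 0 to 5 in MPP-2, 15 to 30 in MPP-3 and 0 to 9 in MPP-4. The 111 genes of the interaction became 506 with no filter, 1 with limma-voom and the library as a random effect, and 29 to 189 over left-out libraries. The 7808 of 12434 genes called for cycling cells became 2961 of 12434 without the library block, 3231 of 8909 within MPP-3 and 1928 of 7129 within MPP-2. Over left-out libraries they ran from 6434 of 12141 genes to 8010 of 12860. The r between same-numbered libraries was -0.057 and -0.055, taken on the differences of each library from its group mean. With 2 AML libraries those differences mirror each other, so r cannot decide whether the replicate numbers pair the libraries. With the replicate block Ms4a4c and Ms4a6c were still called over all LSK cells, at 2.05 and 1.56. With 3 against 2 libraries, and 1945659 UMIs in the smallest, depth limits the sparse members, and Ms4a6d could be fitted in 1 of the 4 classes.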
